A study of Mus musculus with 20 samples.

Results

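Of the protein-coding genes that lie in the segment present in 3 copies in both Dp3Tyb and Ts1Rhr mice, 8 have general roles in membrane trafficking, protein turnover, membrane protein insertion or cofactor metabolism: Ttc3, Psmg1, Vps26c, Dop1b, Get1, Pigp, Bace2 and Hlcs. They were taken by name from the 30 protein-coding genes counted in that segment here, and from a table of 48795 genes in all, by position and role and not by a threshold on a measured value. The question asked of them was whether their RNA in the embryonic heart stood at the 1.5-fold level that 3 copies against 2 would give. Each strain models Down syndrome by an extra copy of part of mouse chromosome 16, and the Ts1Rhr segment is the shorter and lies inside that of Dp3Tyb. Whole hearts were taken at E13.5, in mid-gestation, from Dp3Tyb embryos, their wild-type (WT) littermates, Ts1Rhr embryos and their WT littermates, with 5 hearts in each of the 4 groups, and their mRNA was sequenced. All mice were on a C57BL/6J background and no group received a treatment. The extra copy is present in every cell of the mutant hearts, so no single cell type is addressed. A description label that speaks of heart defects is given to all 5 Dp3Tyb hearts and to Ts1Rhr replicates 1 and 2, and Ts1Rhr replicates 3 to 5 are labelled as without them. The study that reported these hearts describes Ts1Rhr embryos as not having congenital heart defects, unlike the labels of replicates 1 and 2. The 5 Ts1Rhr hearts were kept as 1 group. The labels name no litters, so p-values measure the spread between these hearts.

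These genes act at different steps of the life of a protein. Ubiquitin ligases such as Ttc3 mark proteins for destruction by the proteasome, whose 20S core is put together with the help of chaperones that include Psmg1. Vps26c and Dop1b serve the sorting of membrane cargo out of endosomes, Get1 receives tail-anchored proteins at the endoplasmic reticulum, Pigp takes part in the first step of the glycosylphosphatidylinositol (GPI) anchor, Bace2 is a membrane-bound protease, and Hlcs attaches biotin to the carboxylases that need it. Because cells of all kinds depend on such processes, most of these genes are active in nearly every tissue.

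Each library held between 6.60 and 19.6 M reads, and every one of the 8 genes had reads in all 20 libraries, with a lowest count of 86 reads (Dop1b in WT replicate 5 of the Dp3Tyb cohort). Transcripts encoded by the mitochondrial genome took over 10% of the reads in 7 libraries (10.5% to 19.5%) and between 4.85% and 7.17% in the other 13. The 7 were Dp3Tyb replicate 5, its WT replicate 5, Ts1Rhr replicates 1 and 2, and WT replicates 1, 2 and 4 of the Ts1Rhr cohort. They were also shallower as a set, at 6.60 to 17.0 M reads against 12.2 to 19.6 M reads, although the ranges overlap. Cardiomyocyte markers were high everywhere, with a summed level of 7 genes from 267759 to 453432. Liver markers summed to at most 219, with Apoa1 at 0 in 4 libraries. The 8 lung and foregut markers summed to 108 to 748 in Dp3Tyb hearts (median 243) against 7.61 to 574 in WT hearts (median 35.2), and to 12.4 to 511 in Ts1Rhr hearts (median 227) against 212 to 655 in WT hearts (median 357), with Nkx2-1 at 0 in 4 libraries and Sftpc in 15. So the medians differed in opposite directions in the cohorts, all groups overlapped, and the part of these markers in the results was not tested. Endothelial and endocardial markers (15230 to 18197) and epicardial markers (3771 to 5024) were present in every heart. Erythroid markers summed to 32311 to 75772 in the Dp3Tyb cohort and 59138 to 237768 in the Ts1Rhr cohort, and their part in the results was not tested. Macrophage markers were higher on the median in the mutants: they summed to 1839 to 2162 in Dp3Tyb hearts (median 1993) against 1336 to 1916 in WT hearts (median 1661), and to 1596 to 2227 in Ts1Rhr hearts (median 2082) against 1491 to 1724 in WT hearts (median 1621). The groups overlapped in both cohorts, and the part of these markers in the differences of the 8 genes was not tested. In RNA from whole hearts, fewer cells of a type and less RNA per cell cannot be told apart.

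The 8 genes lie on chromosome 16, and positions below are those of RefSeq on the GRCm38.p6 assembly. From the side of the centromere their order is Dop1b (chr16:93711907-93810588, plus strand), Hlcs (chr16:94129306-94315239, minus strand), Pigp (chr16:94358763-94371015, minus strand), Ttc3 (chr16:94370625-94469222, plus strand), Vps26c (chr16:94497724-94526629, minus strand), Psmg1 (chr16:95979933-95990960, minus strand), Get1 (chr16:96145400-96157852, plus strand) and Bace2 (chr16:97356728-97442936, plus strand). Ttc3 and Pigp are read away from each other from overlapping starts, and in the GENCODE vM39 annotation their exons share 354 bases, 17.1% of the exon bases of Pigp and 1.96% of those of Ttc3. Get1 shares 623 exon bases with Lca5l on the opposite strand, which had a mean value of 36.4 against 662 for Get1. Pigp also shares 234 exon bases with the pseudogene Gm15310 on its own strand, and Dop1b 443 with the non-coding gene 2310043M15Rik on the opposite strand, and both of these had mean values under 1 (0.0786 and 0.125). Vps26c shares 393 exon bases with Gm56596, Get1 505 with Gm49928 and Pigp 386 with Gm60753, and these non-coding genes were not among the genes analysed here. Whether strand was used in the counting is not given in the sources used here, so reads from shared bases may have been given to either gene, which bears most on Pigp, beside the far more abundant Ttc3.

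Promoter windows of 300 bases, from 250 before to 50 after a start, were given by RefSeq (GRCm38.p6) for 7 of the 8 genes, 12 windows in all, and those of the 4 genes whose levels varied most steeply with the share of mitochondrial reads, as described further on, are printed here. Capitals mark CGCATGCG, the core of the site of NRF1, and CCGGAAG, a site of ETS family factors, or their reverse complements.
Ttc3 promoter, chr16:94370489-94370788, plus strand: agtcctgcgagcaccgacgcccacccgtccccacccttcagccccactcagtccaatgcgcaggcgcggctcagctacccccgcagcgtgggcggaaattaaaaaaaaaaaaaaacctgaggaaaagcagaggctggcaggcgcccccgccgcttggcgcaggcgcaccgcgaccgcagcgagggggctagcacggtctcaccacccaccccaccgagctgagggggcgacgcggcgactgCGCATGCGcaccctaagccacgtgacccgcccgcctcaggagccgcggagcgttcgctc
Psmg1 promoter, chr16:95990911-95991210, minus strand: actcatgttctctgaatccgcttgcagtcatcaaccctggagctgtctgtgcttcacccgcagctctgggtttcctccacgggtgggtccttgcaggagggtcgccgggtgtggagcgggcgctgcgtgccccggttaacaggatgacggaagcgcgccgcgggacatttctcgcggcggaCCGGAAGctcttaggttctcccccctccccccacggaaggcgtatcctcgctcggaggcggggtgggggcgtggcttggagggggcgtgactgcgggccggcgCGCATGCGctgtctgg
Vps26c promoter, chr16:94526580-94526879, minus strand: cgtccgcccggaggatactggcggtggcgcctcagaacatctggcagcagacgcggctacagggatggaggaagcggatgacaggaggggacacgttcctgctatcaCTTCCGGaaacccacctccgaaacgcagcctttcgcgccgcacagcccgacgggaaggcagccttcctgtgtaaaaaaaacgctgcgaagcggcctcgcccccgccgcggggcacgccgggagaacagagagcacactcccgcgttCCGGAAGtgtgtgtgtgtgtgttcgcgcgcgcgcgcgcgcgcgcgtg
Get1 promoter, chr16:96145150-96145449, plus strand: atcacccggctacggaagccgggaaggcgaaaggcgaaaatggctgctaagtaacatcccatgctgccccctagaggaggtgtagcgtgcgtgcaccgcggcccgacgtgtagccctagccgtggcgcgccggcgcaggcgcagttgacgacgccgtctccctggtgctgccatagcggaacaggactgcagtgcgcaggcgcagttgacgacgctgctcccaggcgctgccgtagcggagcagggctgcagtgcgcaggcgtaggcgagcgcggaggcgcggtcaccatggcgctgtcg
The Ttc3 window shares 288 of its bases with 1 of the 4 windows of Pigp, read in the other direction, so that the CGCATGCG 9 bases before the start of Ttc3 is also held by 2 of the Pigp windows. Psmg1 has the same 8 letters 35 bases into its transcript (its start counted as 1), and 1.87% of all 32851 windows hold them on either strand. CCGGAAG was found in 8.86% of all windows, at 2 places in that of Vps26c and at 1 in those of Psmg1 and, not printed, in 1 window each of Dop1b and Hlcs. The GC box GGGCGG was present in 35.7% of all windows and in those of Ttc3 and Vps26c, all 4 of Pigp, both of Hlcs and the first of Dop1b, which held it 8 times, but not in those of Get1 and Psmg1. TATAAA, in 13.6% of all windows, was in none of the 12. The E-box CACGTG, in 7.15% of all windows, was seen in the Ttc3 window and 2 of the Pigp windows that cover the same bases. AANATGGC, letters of a YY1 site, was held by 6.05% of all windows and by those of Get1 and 1 of Hlcs, and CCAAT by 37.4% of all windows and by those of Ttc3, 2 of Pigp and 1 of Hlcs. The 4 printed windows were rich in G and C (66.7% to 68.7%, median of all windows 52.7%). Their CpG dinucleotides stood at 0.881 to 1.201 of the number that base content gives (median of all windows 0.384).

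Levels are given as normalised read counts, that is, reads divided by a factor for each library. Fold changes come from limma on log2(normalised read count + 1), fitted to the 10 hearts of a cohort (a strain with its own WT littermates), or to all 20 hearts for the mean of both strains, and p-values were adjusted over all genes tested. All 95% intervals stand for 1 gene and 1 comparison and were not adjusted for their number, and whether they hold 1.5-fold is given as a description.

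All 8 genes were higher on average in both strains. In Dp3Tyb 5 of the 8 genes did not overlap with WT (Get1, Pigp, Dop1b, Hlcs and Bace2), where 0.501% of the 14763 genes tested lay without overlap on the higher side. In Ts1Rhr 6 of the 8 did not overlap (Vps26c and the same 5), against 0.619% of the 14867 genes tested. The ratio of mean counts ran from 1.33 (Dop1b) to 1.68 (Bace2) in Dp3Tyb and from 1.22 (Ttc3) to 1.76 (Vps26c) in Ts1Rhr. The median log2 fold change of the 8 was 0.50 in Dp3Tyb (1.42-fold) and 0.54 in Ts1Rhr (1.45-fold), and that of all genes tested was -0.0027 and -0.0016.

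**Figure D1:**
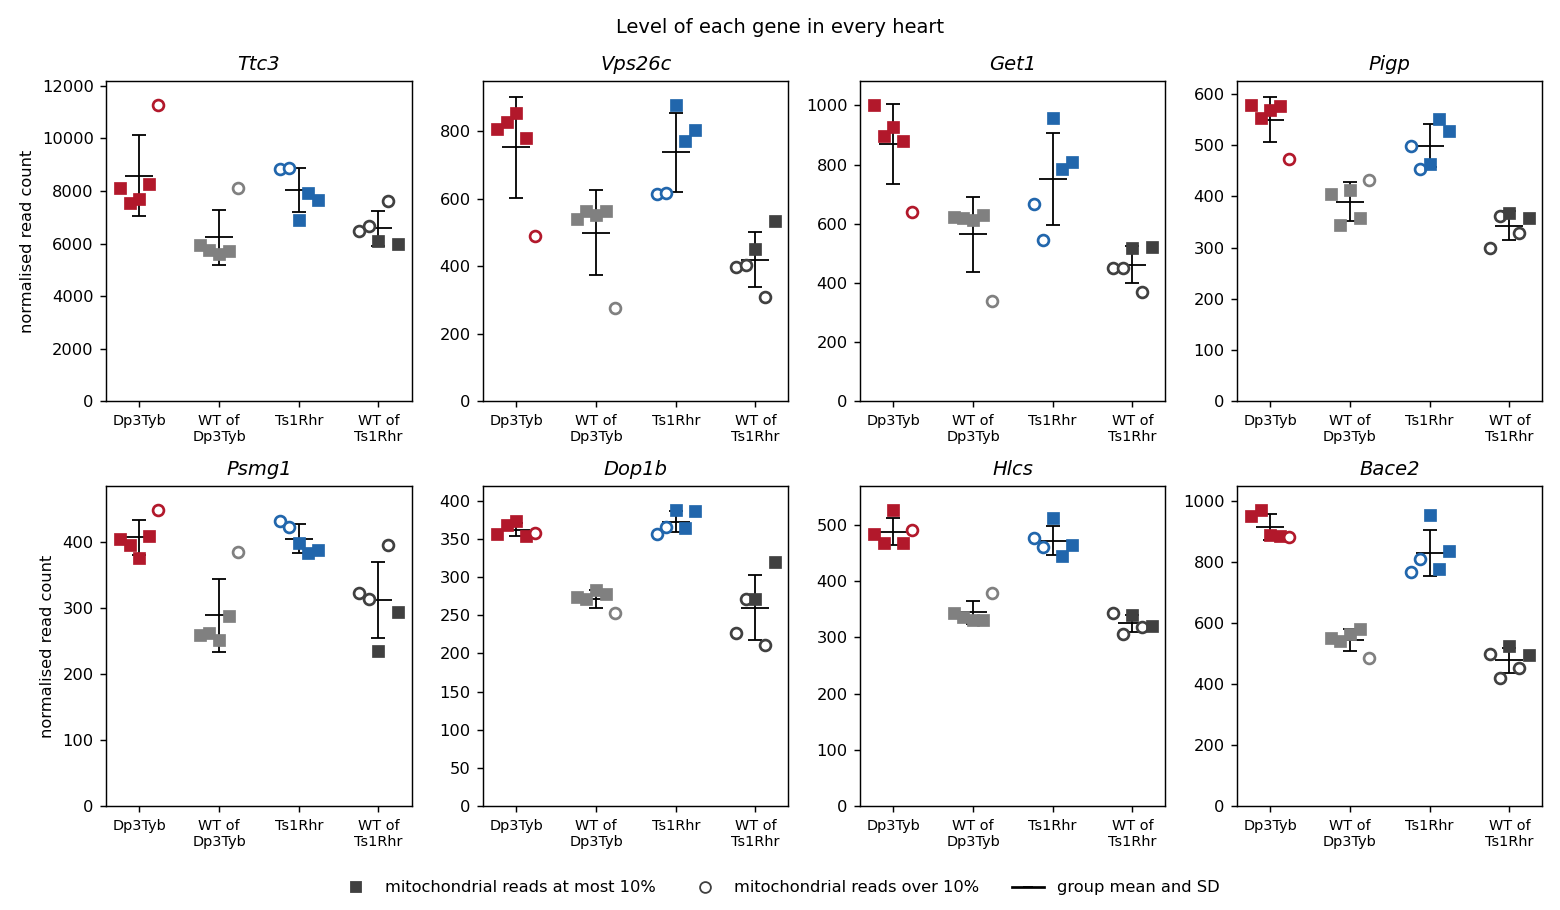
Normalised read count (vertical axis, from 0) of each of the 8 genes in every heart of the 4 groups, with the group mean and SD in black; open circles are the 7 hearts with over 10% mitochondrial reads and filled squares the other 13. Get1 (by a small gap), Pigp, Dop1b, Hlcs and Bace2 separate mutant from WT hearts in both cohorts. The open circles of Ttc3 and Psmg1 tend to lie high in their group and those of Vps26c and Get1 low.

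Ttc3, a ubiquitin ligase, was the most abundant of the 8. Normalised read counts of Ttc3 were 8119, 7559, 7685, 8273 and 11277 in Dp3Tyb replicates 1 to 5, against 5946, 5768, 5618, 5734 and 8109 in their WT littermates. The fifth heart of each group was by far the highest of its group, and 3 of 5 Dp3Tyb hearts lay above all WT hearts. In the Ts1Rhr cohort Ttc3 had 8830.0, 8862, 6892, 7928 and 7642 in the mutant hearts and 6483, 6681, 6089, 7623 and 5993 in WT hearts. Here 4 of 5 mutant hearts lay above all WT hearts, and the exception was replicate 3, beside a high WT replicate 4. The Ttc3 difference was 0.46 ± 0.13 on the log2 scale (SE), or 1.37-fold with a 95% interval from 1.12 to 1.68 (limma adjusted p = 1) in Dp3Tyb. It was 0.29 ± 0.09 on the log2 scale (SE), or 1.22-fold with a 95% interval from 1.07 to 1.40 (limma adjusted p = 0.795) in Ts1Rhr. The Ts1Rhr interval lay wholly below 1.5-fold, as it did in all 19 of the other limma settings tried for this strain, while the Dp3Tyb interval held 1.5-fold in 15 of 18 such settings. In Ts1Rhr the interval excluded no change in 18 of the 19, with a lowest lower limit of 0.990-fold.

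Psmg1, a chaperone that pairs with Psmg2 in the assembly of the proteasome core, was measured at a lower level. Its normalised read counts were 405, 396, 375, 409 and 449 in Dp3Tyb hearts and 259, 262, 252, 289 and 385 in their WT littermates. Of the WT hearts replicate 5 alone reached into the Dp3Tyb range. Ts1Rhr hearts had 432, 423, 399, 383 and 387, and their WT littermates 323, 314, 235, 396 and 294. The mutant hearts were tightly grouped (SD 21.7) and the WT hearts were not (SD 58.1), and WT replicate 4 stood above 2 of the mutant hearts. Psmg1 was 1.42-fold (95% interval 1.19 to 1.70, limma adjusted p = 0.596) higher in Dp3Tyb and 1.31-fold (95% interval 1.099 to 1.57, limma adjusted p = 0.795) higher in Ts1Rhr, and both intervals held 1.5-fold.

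Vps26c is a subunit of retriever, the complex that returns membrane proteins from endosomes to the cell surface. It had normalised read counts of 808, 828, 855, 780.2 and 491 in Dp3Tyb hearts, against 540.2, 564, 553, 565 and 276 in WT hearts. The same 2 hearts that were highest for Ttc3 were lowest for Vps26c: Dp3Tyb replicate 5 fell below 4 of its WT littermates, and WT replicate 5, with 94 reads of this gene, stood far below the other 4. Without these, the Dp3Tyb hearts lay at 780.2 to 855 and the WT hearts at 540.2 to 565. Ts1Rhr hearts held 616, 619, 879, 773 and 805 and their WT littermates 397, 405, 451, 310.1 and 534, with no overlap between the groups. Vps26c was 1.53-fold (95% interval 1.09 to 2.13, limma adjusted p = 1) higher in Dp3Tyb and 1.77-fold (95% interval 1.42 to 2.19, limma adjusted p = 0.122) higher in Ts1Rhr. The wide intervals held 1.5-fold in both strains.

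Dop1b, a partner of Mon2 in traffic between endosomes and the Golgi apparatus, varied little among hearts of 1 genotype, apart from the WT hearts of the Ts1Rhr cohort. The 5 Dp3Tyb hearts had 357, 369, 374, 353 and 358 and their WT littermates 274, 271, 283, 278 and 252, so that the groups were separated by a gap larger than the range of either. In the other cohort Dop1b stood at 357, 366, 388, 364 and 386 in Ts1Rhr hearts and at 227, 271, 271, 211 and 319 in WT hearts, again with no overlap but with a broad WT range. The difference was 0.41 ± 0.06 on the log2 scale (SE), or 1.33-fold with a 95% interval from 1.21 to 1.47 (limma adjusted p = 0.0718) in Dp3Tyb, an interval wholly below 1.5-fold, also in 16 of 18 other limma settings. In Ts1Rhr it was 1.45-fold (95% interval 1.23 to 1.70, limma adjusted p = 0.325), and the interval held 1.5-fold.

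Get1 forms, with Camlg, the receptor through which tail-anchored proteins enter the membrane of the endoplasmic reticulum. Counts of Get1 were 1002, 897, 928, 879 and 641 in Dp3Tyb hearts and 623, 621, 614, 628 and 338 in WT hearts. As for Vps26c, replicate 5 was the lowest of both groups, and the lowest Dp3Tyb heart stood only just above the highest WT heart. Ts1Rhr hearts had 666, 544, 957, 785 and 808, and WT hearts 450.3, 450.3, 519, 369 and 521. Ts1Rhr replicates 1 and 2 were the lowest mutant hearts, and the groups were again just apart. Get1 was 1.56-fold (95% interval 1.18 to 2.07, limma adjusted p = 1) higher in Dp3Tyb and 1.61-fold (95% interval 1.30 to 1.999, limma adjusted p = 0.398) higher in Ts1Rhr, with 1.5-fold inside both intervals.

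Pigp, a small subunit of the enzyme that begins GPI anchor synthesis, had 579, 553, 568, 578 and 473 in Dp3Tyb hearts and 405, 343, 412, 357 and 432 in WT hearts. Its lowest mutant heart was replicate 5, which still lay above all WT hearts. The Ts1Rhr hearts held 499, 454, 464, 552 and 528 and the WT hearts 299, 361, 368, 329 and 358, with no overlap. The differences were 1.41-fold (95% interval 1.23 to 1.62, limma adjusted p = 0.158) in Dp3Tyb and 1.45-fold (95% interval 1.28 to 1.65, limma adjusted p = 0.0739) in Ts1Rhr, both holding 1.5-fold. Ttc3 and Pigp start from shared bases, and in Dp3Tyb replicate 5 Ttc3 was the highest and Pigp the lowest of its group, while in WT replicate 5 of that cohort both were the highest.

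Bace2, a protease related to the β-secretase Bace1 and known to cleave the pigment cell protein Pmel, had the smallest adjusted p of the 8 in both strains. Its normalised read counts were 949, 970.3, 887, 883 and 883 in Dp3Tyb hearts and 549, 542, 563, 579 and 484 in their WT littermates. They were 766, 809, 954, 776 and 836 in Ts1Rhr hearts and 497, 419.9, 523, 454 and 493 in WT hearts. In both cohorts every mutant heart lay above every WT heart by a wide margin. Bace2 differed by 0.75 ± 0.07 on the log2 scale (SE), or 1.68-fold with a 95% interval from 1.52 to 1.86 (limma adjusted p = 0.003) in Dp3Tyb. In Ts1Rhr the difference was 0.79 ± 0.08 on the log2 scale (SE), or 1.73-fold with a 95% interval from 1.53 to 1.96 (limma adjusted p = 0.00668). Both intervals lay above 1.5-fold, and did so in 15 of 18 other limma settings in Dp3Tyb and in 16 of 19 in Ts1Rhr.

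Hlcs, the ligase that attaches biotin to its carboxylases, was also steady within groups, with 484, 468, 526, 467 and 491 in Dp3Tyb hearts and 343, 336, 331, 331 and 379 in WT hearts. In the Ts1Rhr cohort Hlcs was at 477, 459.8, 512, 444 and 463 in mutant hearts and 342, 305, 339, 318 and 320.2 in WT hearts. The groups did not overlap in either cohort. Hlcs was 1.42-fold (95% interval 1.28 to 1.57, limma adjusted p = 0.0321) higher in Dp3Tyb and 1.45-fold (95% interval 1.31 to 1.61, limma adjusted p = 0.0193) higher in Ts1Rhr, and both intervals held 1.5-fold. The call in Dp3Tyb was lost when any 1 of 9 hearts was left out (adjusted p from 0.0652 to 0.155) and kept without WT replicate 5. In Ts1Rhr it was kept without Ts1Rhr replicate 2, Ts1Rhr replicate 3 or WT replicate 5 and lost without any other single heart (adjusted p from 0.0551 to 0.109).

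After adjustment over all genes, 2 of the 8 passed the threshold of 0.05 in Dp3Tyb in limma, Hlcs and Bace2, where 0.0474% of all genes tested were called higher. The same 2 passed in Ts1Rhr, where 0.0269% of all genes were. The mean of both strains, which draws on all 20 hearts, called 7 of the 8 higher, against 0.202% of 15348 genes. Bace2 was again the first by this measure, at 1.71-fold (95% interval 1.59 to 1.84, limma adjusted p = 4.43e-08), and by p-value the first of all genes tested. The eighth gene, Ttc3, was 1.30-fold (95% interval 1.15 to 1.46, limma adjusted p = 0.0712). DESeq2 on the whole reads called all 8 over both strains (0.457% of all genes called higher), with Ttc3 at an adjusted p of 0.00428. With limma, TMM scaling also called 8 (0.215% of all genes; Ttc3 adjusted p = 0.0341), as did array weights (2.09% of all genes). Without the Ts1Rhr hearts labelled with heart defects limma called 6 (0.157% of all genes), all but Ttc3 (adjusted p = 0.239) and Psmg1 (adjusted p = 0.0975). Over both strains Vps26c was 1.64-fold (95% interval 1.34 to 2.01, limma adjusted p = 0.0248). It lost its call in 8 of the 20 fits without 1 heart: Dp3Tyb replicates 1, 2 and 3, Ts1Rhr replicates 3, 4 and 5, and WT replicates 1 and 2 of Ts1Rhr (adjusted p from 0.0517 to 0.0637). Ttc3 passed without WT replicate 5 of the Dp3Tyb cohort or WT replicate 4 of the Ts1Rhr cohort and missed the threshold without any other single heart. DESeq2 on the whole reads called 5 of the 8 in Dp3Tyb (all but Ttc3, Vps26c and Get1; 0.129% of all genes) and 6 in Ts1Rhr (all but Ttc3 and Psmg1; 0.134% of all genes). In limma 4 passed in Dp3Tyb without WT replicate 5 of that cohort, since Psmg1 (adjusted p = 0.0102) and Dop1b (adjusted p = 0.0487) came in, while 0.0818% of all genes were called higher in that fit against 0.0474% with all 10 hearts, and Bace2 kept its call in each strain without any single heart.

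Over both strains the fold changes of the 8 genes ran from 1.30 for Ttc3 to 1.71 for Bace2, on both sides of 1.5-fold. The 95% interval held 1.5-fold for 6 of the 8 genes in each strain and held no change for none. In Dp3Tyb the exceptions were Dop1b below and Bace2 above, and in Ts1Rhr Ttc3 below and Bace2 above. Over both strains the 6 genes whose interval held 1.5-fold were Vps26c (1.64-fold), Get1 (1.59-fold), Hlcs (1.43-fold), Pigp (1.43-fold), Dop1b (1.39-fold) and Psmg1 (1.37-fold). The interval of Dop1b lay wholly below 1.5-fold in 6 of 28 other limma settings, and that of Psmg1 in 1. For Vps26c, Get1, Hlcs and Pigp it held 1.5-fold in all 28. Bace2 stood above it in all 28 of the other limma settings of that comparison, with a lower limit of 1.54-fold or more. Ttc3 stood below it in all 28, with an upper limit of at most 1.49-fold.

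**Figure D2:**
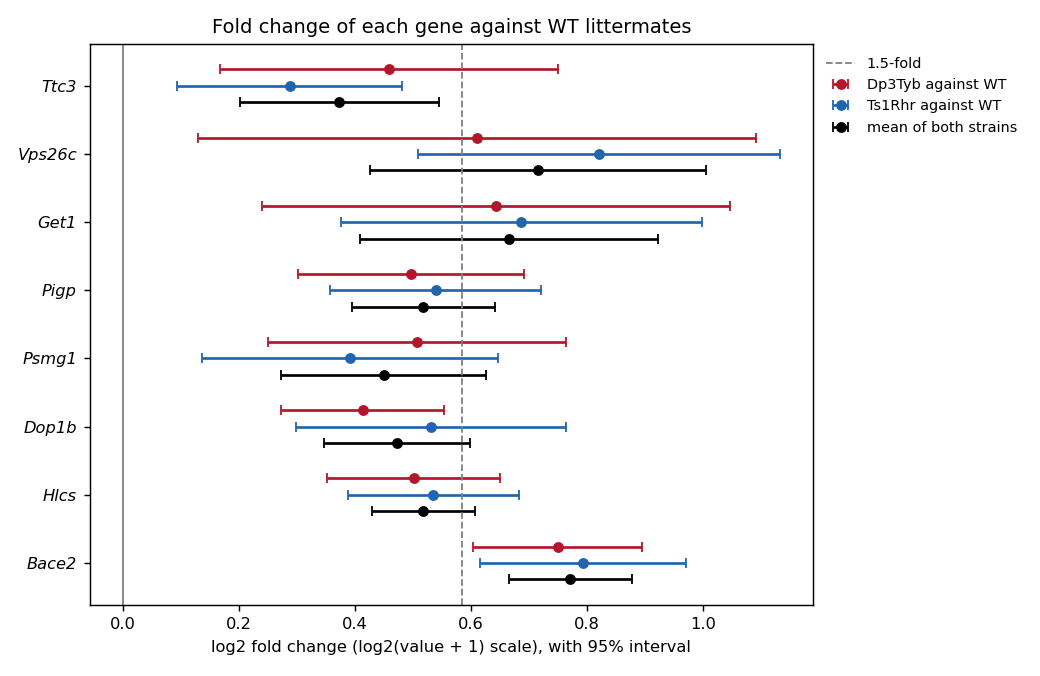
Log2 fold change (horizontal axis) of each of the 8 genes against WT littermates in Dp3Tyb (red), in Ts1Rhr (blue) and as the mean of both strains (black), from limma on log2(value + 1), with 95% intervals as bars; the solid line marks no change and the dashed line 1.5-fold. No interval reaches the solid line, and over both strains Bace2 lies wholly above and Ttc3 wholly below the dashed line.

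Both strains carry all 8 genes in 3 copies, and the direct comparison of the strain effects showed no difference past the threshold for any of them (0 of 8 in limma, where 0.013% of all genes tested passed; 0 of 8 had an unadjusted p under 0.05, and DESeq2 and edgeR also called 0). The effect in Dp3Tyb divided by that in Ts1Rhr was bounded most closely for Hlcs, at 0.98 with a 95% interval from 0.864 to 1.104. It was bounded least for Vps26c, at 0.86 with an interval from 0.58 to 1.29, so that a sizeable difference in either direction remains within the error for that gene. For Bace2 the ratio was 0.97 (0.84 to 1.12) and for Ttc3 1.13 (0.89 to 1.43). The WT hearts of the cohorts were compared as well: 0 of the 8 genes passed, and 0% of all genes tested, of which 896 had an unadjusted p under 0.05. Of the 8, 2 had an unadjusted p under 0.05, Pigp and Bace2, both lower in WT hearts of the Ts1Rhr cohort (log2 difference -0.18 ± 0.08 and -0.19 ± 0.07, SE, limma adjusted p = 0.833 each). DESeq2 and edgeR called 0 of the 8.

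Among hearts of 1 genotype, Ttc3 and Psmg1 were higher and Vps26c and Get1 lower where the share of mitochondrial reads was higher. This was measured with a limma fit over all 20 hearts with the 4 groups and the share as terms, which was chosen after the values had been seen. Ttc3 rose by 0.37 ± 0.04 on the log2 scale per 10 percentage points of mitochondrial reads (SE, limma adjusted p = 5.12e-09), and Psmg1 by 0.34 ± 0.06 (limma adjusted p = 1.8e-05). Vps26c had a slope of -0.68 ± 0.04 (limma adjusted p = 1.29e-12), and Get1 of -0.59 ± 0.05 (limma adjusted p = 1.93e-10). The 4 slopes kept their direction and their call in each cohort fitted apart, without each of the 7 hearts in turn and with other scalings, with or without the mitochondrially encoded genes in the totals. Dop1b (slope -0.16 ± 0.06, limma adjusted p = 0.0163) and Bace2 (-0.13 ± 0.05, limma adjusted p = 0.0207) also passed, with smaller slopes. Dop1b lost its call in the Dp3Tyb cohort alone (limma adjusted p = 0.301) and Bace2 in the Ts1Rhr cohort alone (limma adjusted p = 0.222). Calls were also lost, among the fits without 1 of the 7 hearts, for Dop1b without WT replicate 4 of the Ts1Rhr cohort (limma adjusted p = 0.0847) and for Bace2 without WT replicate 5 of the Dp3Tyb cohort (limma adjusted p = 0.126). The slopes of Pigp (-0.06 ± 0.06, limma adjusted p = 0.447) and Hlcs (0.05 ± 0.05, limma adjusted p = 0.382) did not pass, although Pigp did so without WT replicate 5 of the Dp3Tyb cohort (slope -0.21, limma adjusted p = 0.0176). So 2 of the 8 genes rose and 4 fell with the share, but slopes of this kind were common: 29.7% of all 15348 genes rose and 31.7% fell. Cardiomyocyte markers summed to 343566 to 453432 in the 7 hearts and to 267759 to 428527 in the other 13, and erythroid markers to 32311 to 150180 and to 51823 to 237768. The part of these, of the mitochondrial share and of the depth that goes with it, in the levels of these genes was not tested. In the Ts1Rhr group the 2 hearts over 10% are also the 2 whose labels name heart defects, and these cannot be told apart.

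**Figure D3:**
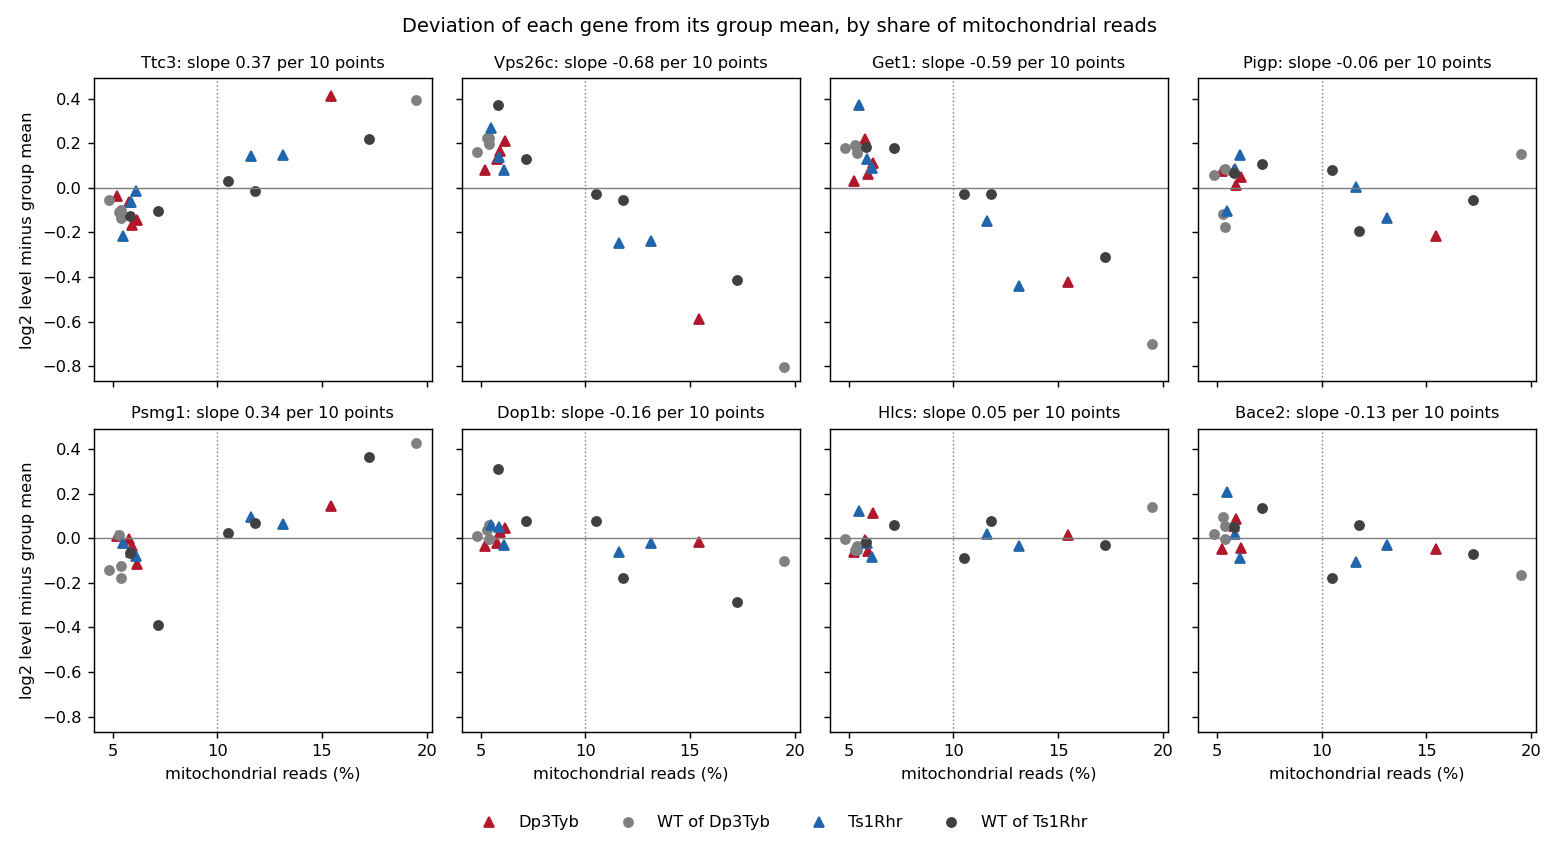
Log2(normalised read count + 1) minus the mean of the group (vertical axis) against the share of mitochondrial reads in percent (horizontal axis) for the 8 genes, 1 point per heart, with triangles for mutant and circles for WT hearts and a dotted line at 10%; the slope in each title is per 10 percentage points, from limma. Ttc3 and Psmg1 climb, Vps26c and Get1 descend, and Hlcs shows no steady course, with its highest point in the WT heart at 19.5%.

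With the share of mitochondrial reads as a term, the 95% intervals were narrower and all 8 genes passed in each strain, where 0.224% of all genes were called higher in Dp3Tyb and 0.135% in Ts1Rhr. Over both strains all 8 passed as well, where 1.05% of all genes were called higher. Ttc3 then stood at 1.34-fold (limma adjusted p = 5.24e-09), Psmg1 at 1.41-fold (limma adjusted p = 1.11e-06), Vps26c at 1.55-fold (limma adjusted p = 4.42e-11) and Get1 at 1.51-fold (limma adjusted p = 1.27e-09). Bace2 stood at 1.69-fold (limma adjusted p = 3.95e-11). Compared with the fit without the term, Ttc3 and Psmg1 were a little higher and Vps26c, Get1 and Bace2 a little lower. Leaving out the 7 hearts instead gave 8 of 8 in Dp3Tyb (0.165% of all genes called higher, 4 hearts against 4) and 8 of 8 over both strains (0.233% of all genes). In Ts1Rhr, where 3 mutant and 2 WT hearts were left, it gave 0 of 8, and 0% of 13929 genes passed (496 had an unadjusted p under 0.05), while 8 of 8 had an unadjusted p under 0.05 in limma and no other tool was run on these hearts.

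Other genes in 3 copies in both strains gave the setting for these values. Of the 22 other protein-coding genes counted in the segment, 13 were tested over both strains, 13 were higher and 7 passed. Within strains, 12 of 12 tested were higher in Dp3Tyb and 12 of 13 in Ts1Rhr, with 2 passing in each. Over both strains their log2 fold changes ran from 0.28 (Pcp4) to 0.71 (Sim2), with a median of 0.49, against 0.52 for the 8 genes. Ordered by that fold change, Bace2 stood first and Vps26c at place 2 of the 21, Get1 at place 5, and Ttc3 at place 19. The value of Sim2 is the mean of opposite effects, 2.42 in Dp3Tyb and -0.99 in Ts1Rhr. Sim2, Erg and Pcp4 had intervals that held no change, so their places in that order are uncertain. For each of the 8 genes the gene most like it over the 20 hearts, by Pearson's r of log2(value + 1) among 15347 others, also lay in the segment. Ttc3 and Psmg1 both had Dyrk1a as the most like (r = 0.95 each), Vps26c and Get1 each other (0.97), and Hlcs and Bace2 each other (0.95). Pigp was most like Brwd1 (0.92) and Dop1b most like Ets2 (0.94). The 20 points share the genotype, the cohort and the depth of their libraries, so these values are a description. With each group's mean taken off, which removes the step between 2 and 3 copies, the most like gene lay outside the segment for all 8. It was then Arid2 for Ttc3 (r = 0.98), Rabac1 for Vps26c (0.99), Mtch1 for Get1 (0.98), Zfp639 for Psmg1 (0.92), Timm8b for Hlcs (0.92), Gm15421 for Dop1b (0.87), Commd5 for Bace2 (0.84) and Rab37 for Pigp (0.79). Each is the highest of 15347 values. The mitochondrial share was not taken off, with which 29.7% of all genes rose and 31.7% fell. Among the 8 genes themselves r was -0.97 for Ttc3 with Vps26c, 0.95 for Vps26c with Get1 and -0.16 for Ttc3 with Pigp. So these values too are a description.

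**Figure D4:**
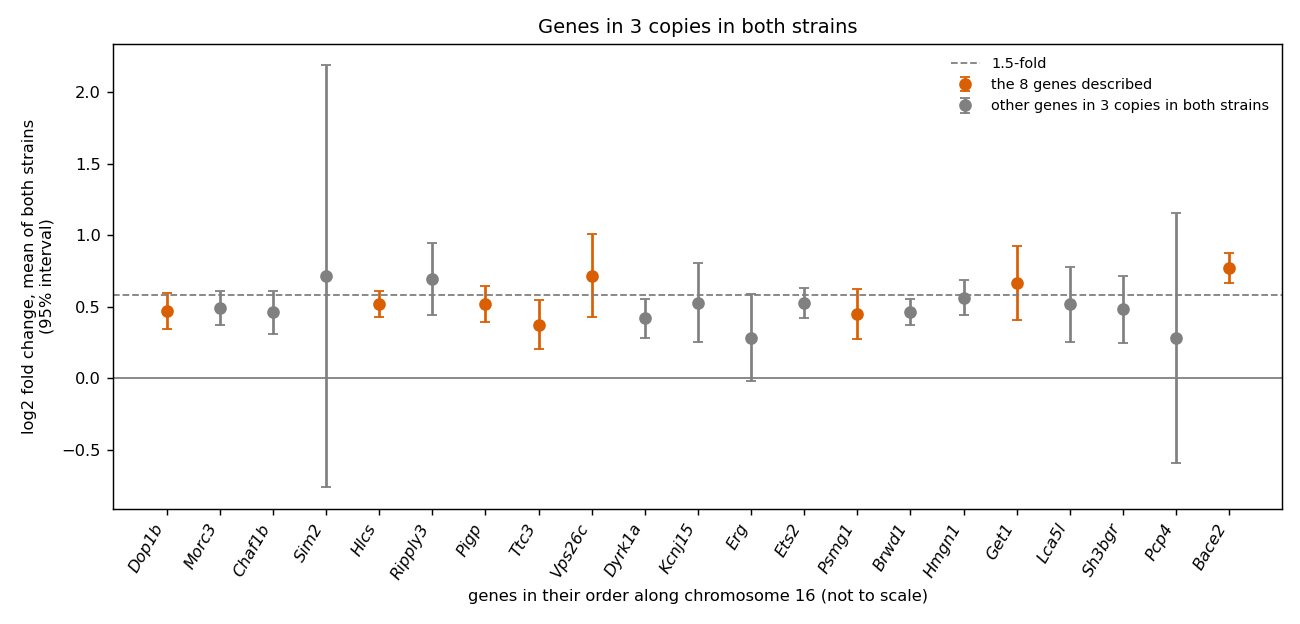
Log2 fold change over both strains (vertical axis, mean of the effects in Dp3Tyb and Ts1Rhr, limma) with 95% intervals for the 21 genes tested of the segment in 3 copies in both strains, in their order along chromosome 16; the 8 genes described are in orange, the 13 others in grey, the solid line is no change and the dashed line 1.5-fold. Bace2, last in the order, lies above the dashed line, and the intervals of Sim2, Erg and Pcp4 cross the solid line.

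Per kilobase of the canonical transcript, the 8 genes covered a wide range in the 10 WT hearts. Ttc3 was highest at 849.6 ± 112 normalised reads per kilobase (SD, n = 10). Pigp followed at 402 ± 43.9 and Psmg1 at 288 ± 52.5. Get1 (181 ± 38.4, from 119 to 222) and Vps26c (173 ± 40.8, from 104 to 213) came next, with ranges that overlapped. Bace2 (64.9 ± 6.40, from 53.4 to 73.7) and Hlcs (60.2 ± 3.55, from 54.9 to 68.2) also had overlapping ranges. Dop1b was lowest at 32.7 ± 3.72. All genes were read in the same hearts, so an SD over hearts is not the spread of a difference between genes, which was not tested. The length is that of 1 transcript per gene and the counts are for all of its transcripts, so the order is approximate.

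Partners of the 8 proteins, which are encoded outside the segment and have no extra copy in either strain, showed no change past the threshold. Of 71 partner genes in 8 lists, 68 were tested. Camlg, which forms the receptor with Get1, and Pigy, of the list of Pigp, were not found by symbol among the genes. Cltrn, of the list of Bace1 and substrates, was not tested either. In each strain 0 passed, and 0 had an unadjusted p under 0.05, which 2.8% of all genes had in Dp3Tyb and 5.52% in Ts1Rhr. Over both strains 37 were higher and 31 lower, 0 passed in limma in either direction (0.267% of all genes tested passed), 2 had an unadjusted p under 0.05 (8.19% of all genes did), and DESeq2 and edgeR called 0. With the mitochondrial share as a term 0 passed as well. Their median log2 fold change was 0.0069, against 0.0024 for all genes tested.

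The retriever, retromer and COMMD partners of Vps26c numbered 19, of which 9 were higher and 10 lower, with a median log2 fold change of -0.0058 over both strains. Commd9, a subunit of the complex that works with retriever, had the largest value (0.10 ± 0.17, SE), and Vps26a, the retromer paralogue of Vps26c, stood at -0.10 ± 0.13. Among the 18 proteasome core subunits and assembly chaperones that act with Psmg1, 5 were higher and 13 lower (median -0.018). Psmb5 and Psmb4, both core subunits, had the largest values (0.16 ± 0.17 and 0.16 ± 0.23), and the chaperone Psmg3 stood at 0.12 ± 0.15. Of the 5 tail-anchored insertion partners of Get1 tested, 3 were higher (median 0.058), led by Get4 at 0.09 ± 0.13.

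The 5 GPI transferase partners of Pigp tested had a median of 0.021, and Pigh, another subunit of that enzyme, stood at -0.11 ± 0.07. Of the 9 biotin-dependent carboxylases and genes of biotin recycling beside Hlcs, 7 were higher and 2 lower (median 0.027). Pcx, pyruvate carboxylase, stood at 0.18 ± 0.14, and Slc5a6, a carrier that takes up biotin, at 0.15 ± 0.14. Of the 4 endosome to Golgi genes beside Dop1b, 3 were higher (median 0.016), and Atp9a had the largest change, at 0.16 ± 0.11. Dop1a, its paralogue, was 1 of the 2 with an unadjusted p under 0.05, at -0.14 ± 0.04 (limma adjusted p = 0.247). Aplp1, a relative of the amyloid precursor protein, was the other, at 0.14 ± 0.06 (limma adjusted p = 0.547). All 5 of the genes tested in the list of Bace1 and substrates were higher (median 0.094), with Pmel at 0.32 ± 0.30 and Bace1, the paralogue of Bace2, at 0.09 ± 0.06.

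With the share of mitochondrial reads, in contrast, many partners moved: 33 of the 68 fell and 16 rose past the threshold, beside 31.7% and 29.7% of all genes. The genes and lists named here were chosen after their slopes were seen. Of the 19 partners of Vps26c, 9 fell, with Snx17, the adaptor that hands cargo to retriever, at a slope of -0.89 per 10 percentage points on the log2 scale (limma adjusted p = 7e-14), and 5 rose, with Vps26a at 0.63 (limma adjusted p = 5.84e-14). Of the 18 partners of Psmg1, 5 fell, led by Psmb4 at -1.13 (limma adjusted p = 5.65e-14), and 5 rose, led by Psma4 at 0.55 (limma adjusted p = 2.15e-11). The 5 partners of Pigp all had slopes below 0, from -0.51 for Dpm2 (limma adjusted p = 1.28e-07) to -0.016 for Pigh (limma adjusted p = 0.879), and 4 of them passed the threshold. Among the 13 other genes of the segment tested, 3 fell and 6 rose.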

How the data were processed

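RNA from 20 whole E13.5 hearts was made into libraries with an mRNA kit (KAPA) and sequenced on an Illumina instrument. The deposited signal values are the authors' normalised counts per gene. Their processing notes name Trimmomatic 0.36, STAR 2.5.2a, RSEM 1.2.31, DESeq2 and the build GRCm38, while the annotation, strand setting and filters used for counting are not given in the sources used here. All values (100%) were whole multiples of 1 step per library (relative tolerance 1e-06), so whole reads were recovered. Size factors recomputed from them matched the deposited scaling.

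Values were tested with limma 3.58.1 (trend, robust; R 4.3.3) on log2(value + 1), for genes that reached 10 in 5 or more libraries of the fit, with Benjamini-Hochberg adjustment over all genes and a threshold of 0.05. Alternatives were edgeR 4.0.16 and DESeq2 1.42.0 on the recovered reads, beside a pseudocount of 10, no filter, TMM scaling, array weights, sex or the mitochondrial share as a term, and libraries left out. Replicate numbers follow the order of deposition, and the labels name no pairs. Judged by Xist against Y-linked genes, 3 of the 5 hearts in each group were female. Mutant and WT hearts of the same number had the same sex in both cohorts. Whether these hearts were matched is not given in the sources used here, and no paired fit was made. All 8 genes were named, and of the partner lists those past the threshold and at most 3 per list with the largest change over both strains, except that the values of 1 list are not reported here. The 8 genes, the partner and marker lists and the tests were chosen with earlier results of these data known.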

Additional observations from a re-analysis of the deposited data

Results flagged for a closer look

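Each of the 8 genes was looked at in each of the 4 groups for a single heart far from the other 4, by the gap to its nearest neighbour over the whole range of the group (Dixon's critical value 0.71 for 5 samples). Of the 32 sets of 5 hearts, 8 held such a heart. Chance gives about 1 in 20 for a single set, but the 8 genes were read in the same hearts and their levels go together, so these sets are not independent. Over all 15348 genes, such a heart was seen for 19.9% in the Dp3Tyb group and 29.5% in its WT group, against 4.64% in Ts1Rhr and 6.87% in its WT group. Of the 8 genes, 3 had one in Dp3Tyb and 5 in its WT group, and all came from the fifth heart of the Dp3Tyb group or of its WT group, with 15.5% and 19.5% mitochondrial reads. In Dp3Tyb replicate 5, Ttc3 was the highest of its group at a normalised read count of 11277, and Vps26c (490.9) and Pigp (472.7) were the lowest of theirs. In WT replicate 5 of the Dp3Tyb cohort, Ttc3 (8109.3), Psmg1 (384.6) and Hlcs (378.7) were the highest of their group, and Vps26c (276.0) and Get1 (337.6) the lowest. So Ttc3 was highest and Vps26c lowest in the fifth heart of both groups, mutant and WT. The part of the mitochondrial share in these values was not tested. No heart of the Ts1Rhr cohort stood apart by this measure for any of the 8 genes.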

How the results depend on the processing

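The number of the 8 genes past the threshold varied with the setting. In Dp3Tyb, where it was 2, it was 5 with DESeq2, 1 without a filter or with sex as a term, and 8 with the mitochondrial share as a term, with array weights or without the libraries over 10% mitochondrial reads, where the median log2 fold change was 0.57. In Ts1Rhr, where it was also 2, it was 6 with DESeq2 or array weights, 8 with the mitochondrial share as a term, 4 with all 20 libraries in the fit, and 0 without the libraries over 10% or without those labelled with heart defects (limma; 8 and 7 of the 8 had an unadjusted p under 0.05). In these last 2 fits 0 of 13929 and 0 of 14652 genes passed, and 496 and 2418 of them had an unadjusted p under 0.05. Leaving out 1 heart gave 1 to 4 genes in Dp3Tyb (4 without WT replicate 5) and 1 to 2 in Ts1Rhr, while 2 to 12 (12 without WT replicate 5) and 1 to 6 of all genes were called higher in these fits. Between the WT cohorts, array weights called 3 genes (Vps26c, Get1 and Bace2). Over all genes, limma called 8 in Dp3Tyb, 4 in Ts1Rhr and 41 over both strains, against 30, 24 and 127 with DESeq2, 45, 25 and 300 with the mitochondrial share as a term and 57, 16 and 706 with array weights. With array weights 3297 genes differed between the WT cohorts, against 0. With all 20 libraries in the fit 17 were called in Dp3Tyb and 11 in Ts1Rhr. No fold change against WT littermates changed direction. Reversals fell among differences and slopes near 0 that passed no threshold. Between strains the log2 difference became 0.055 for Get1 with the mitochondrial share as a term, 0.092 for Pigp, 0.028 for Dop1b and 0.014 for Hlcs without the libraries over 10%, and 0.049 for Hlcs with array weights. Without 1 heart it ran from -0.22 to 0.062 for Get1, -0.086 to 0.011 for Pigp, -0.062 to 0.0011 for Hlcs and -0.084 to 0.0084 for Bace2. Between WT cohorts it became -0.0048 for Ttc3 with the mitochondrial share as a term, and -0.011 for Psmg1 and 0.091 for Dop1b without the libraries over 10%. The slope of Pigp was 0.0014 in the Dp3Tyb cohort alone, and that of Hlcs -0.032 in the Ts1Rhr cohort alone and -0.012 to 0.064 without 1 heart. The causes were not tested. No paired analysis was made, because the labels carry no replicate numbers and name no litters. Depth limits Dop1b and Vps26c most in WT replicate 5 of the Dp3Tyb cohort (86 and 94 reads).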
